A study of Mus musculus with 16 samples.

Results

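The AP-1, Egr and Nr4a immediate early genes were followed through splenic CD4+ T cells of TRaGS mice and their TRaWT littermates. They are 10 of the 47643 gene identifiers in each of 2 count tables, and they were chosen by symbol: Fos, Fosb, Jun, Junb, Jund, Egr1, Egr2, Nr4a1, Nr4a2 and Nr4a3. All 10 were measured in both tables and passed the filter on low values there (normalised counts averaging 5 or more across a table's 8 libraries). TRaGS mice carry a thyroid hormone receptor alpha that cannot bind DNA, and TRaWT mice carry the wild-type receptor. The zygosity of the TRaGS animals and the age and sex of the mice are not stated in the labels. From the spleen of each of 4 TRaGS and 4 TRaWT animals, CD4+ cells were enriched with magnetic beads and then sorted by flow cytometry into CD25+ cells (Treg) and CD25- cells (CD4), which gave 16 libraries of 3' mRNA tags. The labels call the CD25- cells naive, but the gate they describe uses only CD4 and CD25. No stimulation of the cells is described.

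Immediate early genes are transcribed within minutes of a signal, from transcription factors already present in the cell, and their mRNAs decay quickly. In T cells they are classical targets of the antigen receptor, through the calcium, ERK and JNK pathways, and they are also well known to be induced when tissue is dissociated and cells are sorted. Fos and Jun proteins pair to form the transcription factor AP-1. Egr proteins are zinc finger factors, and Nr4a proteins are nuclear receptors for which no classical ligand is known. In Treg, Nr4a factors are known for maintaining Foxp3 and the Treg programme.

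The promoters of these genes are where such signals arrive, so RefSeq windows (build GRCm38.p6, 250 bases before to 50 bases after a transcript's start) were read for the 9 members that had one. Egr1 is named without sequence. Both strands were searched for the core of the cyclic AMP response element (CRE), TGACG, for the CArG box bound by serum response factor, for the Egr site GCGNGGGCG, for the AP-1 site TGANTCA, for the TATA box TATAAA, for the full CRE TGACGTCA (which contains the core), for the nuclear receptor site AGGTCA and for the Nr4a site NBRE, AAAGGTCA (which contains AGGTCA). The windows below show members whose data are described in most detail or, for Egr2, the member with a CArG box match in its windows. Capitals mark the matches, each sequence runs 5′ to 3′ on the gene's strand, and a match shows only that the letters are there.
Fos, chr12:85473640-85473939, plus strand: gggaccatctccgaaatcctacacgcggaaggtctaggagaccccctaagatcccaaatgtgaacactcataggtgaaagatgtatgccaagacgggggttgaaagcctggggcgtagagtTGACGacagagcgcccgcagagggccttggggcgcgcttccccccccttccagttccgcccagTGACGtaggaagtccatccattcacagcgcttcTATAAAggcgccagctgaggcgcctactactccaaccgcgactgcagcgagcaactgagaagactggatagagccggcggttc
Jun, chr4:95052173-95052472, minus strand: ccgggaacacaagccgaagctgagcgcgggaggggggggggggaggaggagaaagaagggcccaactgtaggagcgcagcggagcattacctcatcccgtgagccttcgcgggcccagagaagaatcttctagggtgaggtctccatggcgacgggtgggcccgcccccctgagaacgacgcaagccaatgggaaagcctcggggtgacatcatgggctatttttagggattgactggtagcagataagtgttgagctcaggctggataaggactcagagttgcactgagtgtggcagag
Junb, chr8:84978699-84978998, minus strand: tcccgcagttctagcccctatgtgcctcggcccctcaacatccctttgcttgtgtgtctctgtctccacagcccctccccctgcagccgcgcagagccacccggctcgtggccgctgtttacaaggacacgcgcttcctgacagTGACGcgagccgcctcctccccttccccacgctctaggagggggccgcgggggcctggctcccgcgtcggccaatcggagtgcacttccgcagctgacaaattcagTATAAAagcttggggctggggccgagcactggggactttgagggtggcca
Egr2, the third of its 5 windows, chr10:67537619-67537918, plus strand: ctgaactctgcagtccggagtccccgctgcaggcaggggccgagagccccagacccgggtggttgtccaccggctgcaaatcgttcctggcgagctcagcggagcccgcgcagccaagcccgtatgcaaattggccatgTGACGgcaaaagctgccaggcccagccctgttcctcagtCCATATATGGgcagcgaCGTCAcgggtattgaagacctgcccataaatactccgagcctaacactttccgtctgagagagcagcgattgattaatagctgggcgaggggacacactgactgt
Nr4a1, chr15:101266596-101266895, plus strand: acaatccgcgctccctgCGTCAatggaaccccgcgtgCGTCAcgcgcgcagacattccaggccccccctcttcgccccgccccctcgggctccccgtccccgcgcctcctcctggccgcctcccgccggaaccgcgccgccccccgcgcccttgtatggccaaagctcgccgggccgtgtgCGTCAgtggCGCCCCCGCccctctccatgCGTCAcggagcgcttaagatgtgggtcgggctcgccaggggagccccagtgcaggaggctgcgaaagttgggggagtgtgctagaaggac

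The CRE core was in 9 of the members' 13 windows, several of them overlapping windows of Egr2, and so in 7 of the 9 members. Of all 32851 RefSeq promoter windows of the same length, 20.8% held it. Jun and Jund were the 2 members without an exact match to any of the 8 motifs, and the first Egr2 window held none either. Only exact letters inside the windows were searched, so a variant site, or one farther upstream, was not counted. The Jun window held TGACATCA, which is close to the AP-1 and full CRE letters but matches neither pattern. The Jund window (chr8:70697489-70697788) lies wholly upstream of the annotated gene, which starts at 70698949, so the bases around that start were not read. The Egr site was in 3 of the 13 windows, those of Fosb, Nr4a1 and Nr4a2, against 5.55% of all windows. The TATA box was in 3 of the 13 windows, those of Fos, Junb and Nr4a2, against 13.6% of all windows, and that of Nr4a2 lay on the opposite strand. Egr2 was the only member with an exact CArG box inside a window, in 4 of its 5 overlapping or neighbouring windows, against 1.63% of all windows. The full CRE, the AP-1 site, AGGTCA and the NBRE were in no member's window, and 1.79%, 7.81%, 16.3% and 1.51% of all windows held them.

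**Figure D1:**
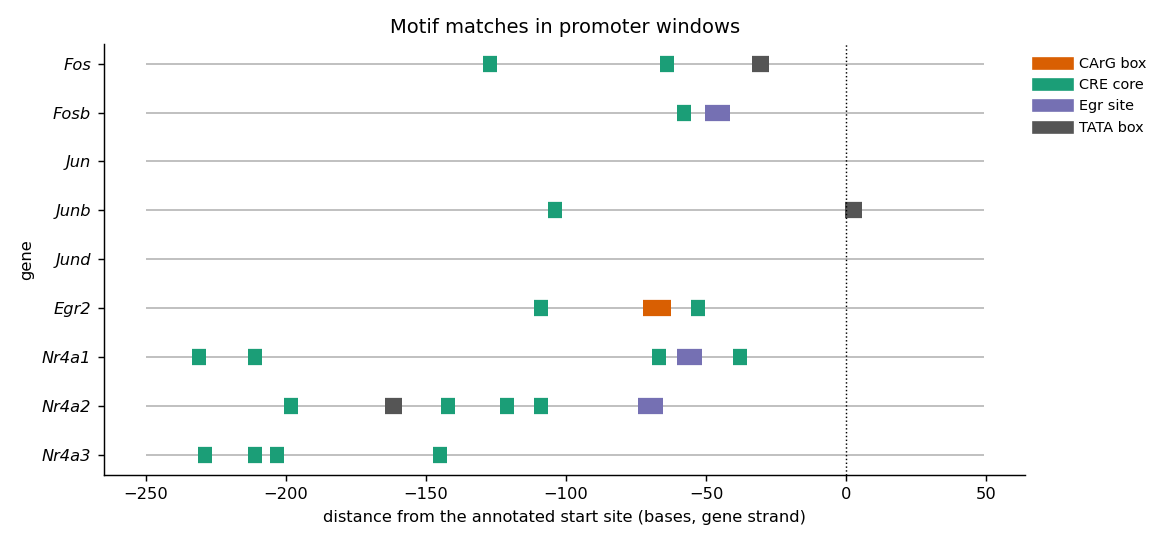
Motif matches in the promoter windows of the members, plotted by distance in bases from the transcript start (horizontal axis, 0 is the start), 1 row per member, with the third window shown for Egr2. CRE cores are spread over the rows of 7 members, and the rows of Jun and Jund are empty. The Jund window lies upstream of the annotated gene.

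The values are normalised counts: the authors' read counts divided by 1 factor per library, with each table scaled on its own. The libraries held 2912038 to 4154027 recovered reads in Treg and 2679119 to 5095278 in CD4. The Treg factor Foxp3 checked the sort, at 893 to 1330 normalised counts in TRaGS and 1069 to 1214 in TRaWT Treg, and at 43.1 to 170 in TRaGS and 45.9 to 115 in TRaWT CD4. Genotypes were compared within each subset with limma on log2(normalised count + 1), and a gene was called where its Benjamini-Hochberg adjusted p over all genes tested was under 0.05. A positive log2 fold change means higher in TRaGS, changes of low genes are understated because of the added 1, and standard errors (SE) are limma's, with n = 4 animals per genotype. In CD4 limma's SEs and p-values rest wholly on the spread of genes of like level, not on a gene's own spread. In Treg they rest on it in large part. In sorted bulk cells, fewer cells expressing a gene and less RNA per cell cannot be told apart.

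In Treg, Jun was the only member called, lower in TRaGS, by limma alone and with overlap between the genotypes. Egr1 was higher in every TRaGS animal than in any TRaWT animal without passing the adjusted test, and the other 8 members were not called. Of the 10 members, 1 was called, against 0.959% of the 11051 genes tested, and that call is lower in TRaGS, against 0.226% of genes. The median log2 fold change was −0.16 over the members, with 3 positive and 7 negative, and 0.01 over all genes. An unadjusted p under 0.05 was reached by 3 members (Jun, Egr1 and Fos) and by 9.12% of all genes. Neither edgeR nor DESeq2, run on recovered reads, called a member (0 of 10 each).

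Jun encodes the AP-1 subunit that pairs with Fos (identifier ENSMUSG00000052684, GRCm38 chromosome 4, 95049034 to 95052222, minus strand). It had 172, 142, 489 and 201 normalised counts in TRaGS Treg, against 409, 273, 430 and 885 in TRaWT Treg. In TRaGS, 3 animals lay below every TRaWT animal, and the remaining one lay above 3 of the 4 TRaWT animals, so the groups overlapped. The log2 fold change was −1.03 ± 0.27 (limma adjusted p = 0.0496), on 185 to 754 reads per library. limma's SE borrows its spread from genes of like level: from the spread of Jun's own 8 values the SE would be 0.53. Without a variance trend the adjusted p was 0.661, and an exact permutation test on Jun alone gave a two-sided p of 0.114. The call was lost in 14 of the 19 alternative settings tried, while the fold change was negative in all 19, between −1.53 and −0.71. Leaving out TRaGS animal 1, 2 or 4, or TRaWT animal 1, 3 or 4, lost it (adjusted p between 0.0890 and 0.423, the highest without TRaWT animal 4), and leaving out TRaGS animal 3 or TRaWT animal 2 kept it.

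Egr1, a zinc finger factor that reports antigen receptor and ERK signals (ENSMUSG00000038418, chromosome 18, 34859823 to 34864984, plus strand), had 478, 422, 606 and 485 normalised counts in TRaGS Treg. The TRaWT values were 305, 398, 308 and 339. All 4 TRaGS animals lay above all 4 TRaWT animals, as for 2.84% of the genes tested, and 5.07% of genes had no overlap in either direction. The log2 fold change was 0.55 ± 0.18, with an unadjusted p of 0.00386 and a limma adjusted p of 0.199. The exact permutation p, two-sided, was 0.0286, the smallest that 4 against 4 allows. It was positive in all 19 alternatives, between 0.42 and 0.64, and called in none of them. Summed markers of other cell types made up 0.0602% to 0.0818% of the reads in TRaGS Treg and 0.0404% to 0.0538% in TRaWT Treg, also without overlap. Most of that was the B cell list of 9 genes, which summed to 1664 to 2020 normalised counts in TRaGS Treg and 898 to 1269 in TRaWT Treg. The defining B cell marker Cd79a was at most 1.12 in TRaGS Treg and 1.17 in TRaWT Treg. The Treg marker list also summed higher in TRaGS Treg, at 10012 to 12340 normalised counts, than in TRaWT Treg, at 8595 to 9673. Its genes did not all go that way. Ikzf2, the largest of those read singly, had 4577 to 6096 in TRaGS Treg and 3440 to 4390 in TRaWT Treg. Tnfrsf18 and Tnfrsf4 were also higher without overlap. They had 712 to 850 and 716 to 1098 in TRaGS Treg, against 464 to 579 and 524 to 673 in TRaWT Treg. Il2ra ran lower with overlap, at 1009 to 1370 in TRaGS Treg and 1351 to 1699 in TRaWT Treg, and Foxp3 overlapped. The CD4 T cell, CD8 T cell, NK cell, myeloid, neutrophil, erythroid and plasma cell lists overlapped between the genotypes in Treg. The part of these markers in the Egr1 values was not tested.

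Fos, the partner of Jun in AP-1 (ENSMUSG00000021250, chromosome 12, 85473890 to 85477273, plus strand), had 68.1, 24.6, 158 and 70.7 normalised counts in TRaGS Treg, against 108, 59.4, 132 and 384 in TRaWT Treg. TRaWT animal 4 was the highest and TRaGS animal 2 the lowest, and the groups overlapped. The log2 fold change was −1.02 ± 0.42 (unadjusted p = 0.0206, limma adjusted p = 0.417). It was −0.55 without TRaGS animal 2, −0.51 without TRaWT animal 4 and −1.69 with TRaGS animals 1 and 2 alone, and was called in none of these. Fosb, a Fos relative that also pairs with Jun proteins (ENSMUSG00000003545, chromosome 7, 19302696 to 19310051, minus strand), had 26.6, 18.1, 35.7 and 28.3 normalised counts in TRaGS Treg and 78.1, 19.1, 35.0 and 50.5 in TRaWT Treg. Its log2 fold change was −0.60 ± 0.55 (adjusted p = 0.836).

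Junb and Jund are Jun relatives that also form AP-1 dimers, and neither was called in Treg. Junb (ENSMUSG00000052837, chromosome 8, 84974484 to 84978718, minus strand) averaged 646 ± 200 normalised counts in TRaGS Treg and 721 ± 369 in TRaWT Treg (SD, n = 4 each), a log2 fold change of −0.05 ± 0.23 (adjusted p = 0.978). Its annotation overlaps Prdx2 on the other strand, and no label says whether strand was used in counting. Jund (ENSMUSG00000071076, chromosome 8, 70698949 to 70700616, plus strand) averaged 1482 ± 383 in TRaGS Treg and 1389 ± 338 in TRaWT Treg, a log2 fold change of 0.09 ± 0.16 (adjusted p = 0.936). Both had wide overlap between the genotypes.

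Egr2, a zinc finger factor known for restraining T cell activation (ENSMUSG00000037868, chromosome 10, 67535475 to 67542188, plus strand), had 37.4, 79.5, 51.3 and 35.9 normalised counts in TRaGS Treg, against 27.1, 47.3, 17.5 and 38.7 in TRaWT Treg. Its log2 fold change of 0.64 ± 0.50 was not called (adjusted p = 0.778), and the groups overlapped.

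Of the nuclear receptors, Nr4a1, widely used as a reporter of antigen receptor signalling (ENSMUSG00000023034, chromosome 15, 101254269 to 101274795, plus strand), had 78.9, 78.1, 39.0 and 67.4 normalised counts in TRaGS Treg. The TRaWT values were 60.0, 98.6, 128 and 47.0, and the log2 fold change was −0.28 ± 0.39 (adjusted p = 0.901). These values overlapped. Nr4a2 (ENSMUSG00000026826, chromosome 2, 57106830 to 57124003, minus strand) had 40.7, 50.6, 65.8 and 75.0 in TRaGS Treg, against 72.3, 22.1, 38.5 and 168 in TRaWT Treg, where animal 4 alone exceeded every TRaGS value. Its log2 fold change was −0.01 ± 0.46 (adjusted p = 0.998). Nr4a3 (ENSMUSG00000028341, chromosome 4, 48045153 to 48086447, plus strand) had 93.0, 74.5, 171 and 129 in TRaGS Treg and 98.6, 107, 252 and 258 in TRaWT Treg. Its log2 fold change was −0.54 ± 0.31 (adjusted p = 0.645). For Nr4a2 and Nr4a3, as for Fos and Jun, TRaWT animal 4 held the highest Treg value.

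**Figure D2:**
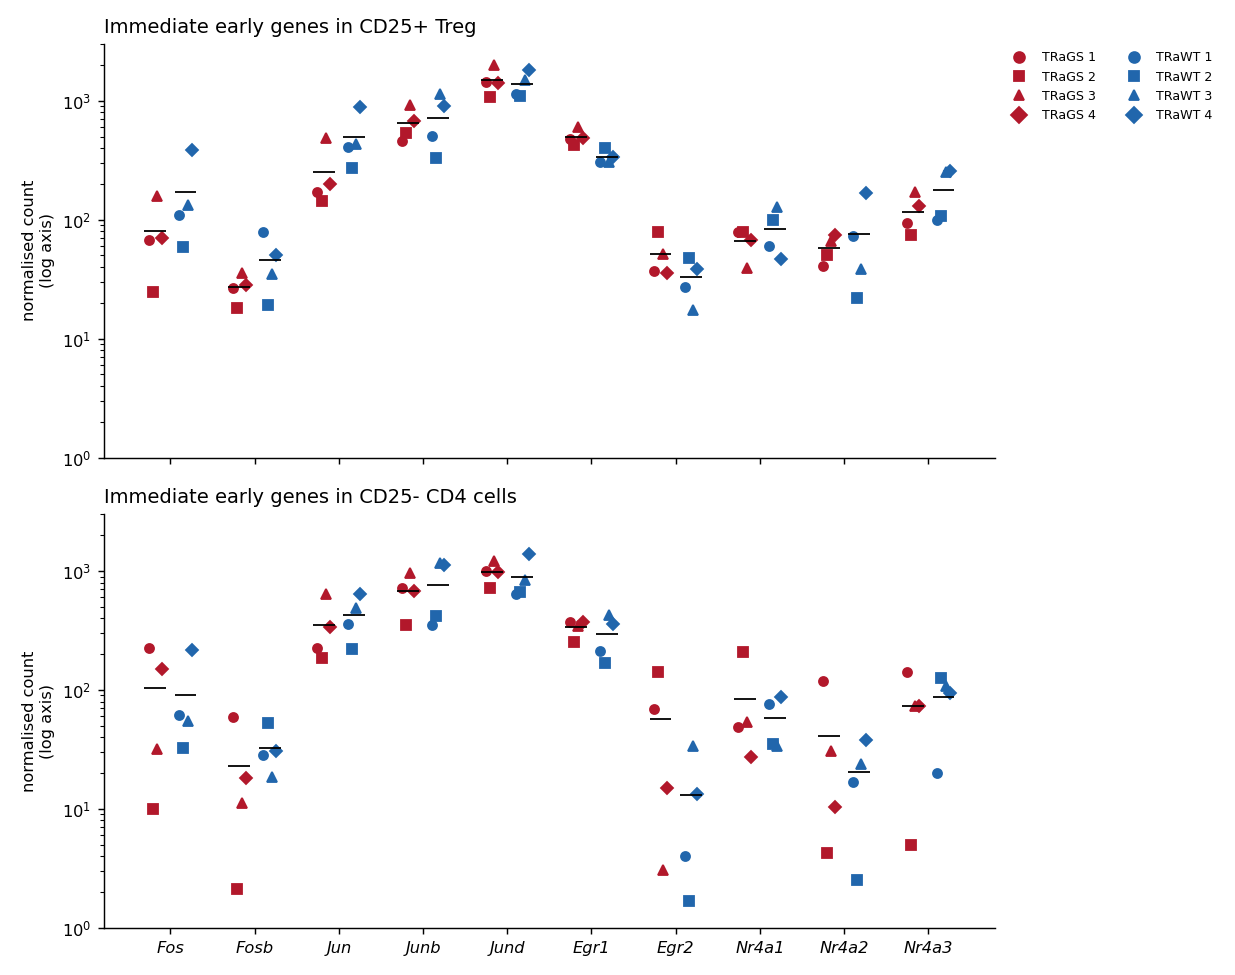
Normalised counts of each member in every library (log axis), with Treg and CD4 in separate panels and TRaGS left of TRaWT. Each point is 1 animal, n = 4 per group, and each short line is the group's mean. Egr1 in Treg is the only member and subset in which the 4 TRaGS points lie apart from the 4 TRaWT points.

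In CD4 cells, 0 of the 10 members were called by limma, against 0.0575% of the 10426 genes tested, and edgeR and DESeq2 also called 0. An unadjusted p under 0.05 was reached by 0 members and by 5.17% of genes. The Treg and NK cell marker lists did not overlap in CD4, with sums of 1298 to 1709 and 129 to 240 in TRaGS, against 1112 to 1162 and 82.7 to 118 in TRaWT. Within the Treg list, Ikzf2 had 570 to 795 in TRaGS CD4 and 400 to 451 in TRaWT CD4, while Foxp3 and Il2ra overlapped. For every member the TRaGS and TRaWT values overlapped, while 3.16% of all genes showed no overlap. The fold changes were 5 positive and 5 negative, with a median of 0.07 over the members and −0.01 over all genes.

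Several members spread widely between CD4 libraries of 1 genotype. For Egr2 and Nr4a2 that spread was near the one of genes of like level, as given below. Egr2 had 69.4, 143, 3.08 and 14.9 normalised counts in TRaGS CD4, against 4.04, 1.67, 33.8 and 13.4 in TRaWT CD4, so the highest of 8 libraries exceeded the lowest 85.5-fold. TRaGS animals 1 and 2 were the highest, TRaGS animal 3 was lower than 3 of the 4 TRaWT animals, and the log2 fold change was 1.65 ± 1.23 (adjusted p = 0.947). The lowest library held 2 reads of Egr2 and the highest 202. Nr4a2 had 118, 4.24, 30.8 and 10.3 in TRaGS CD4, against 17.0, 2.51, 24.0 and 37.8 in TRaWT CD4, a 47.2-fold range with a log2 fold change of 0.47 ± 1.19 (adjusted p = 0.981). The fold range was 28.6 for Nr4a3, which had 142, 4.95, 73.8 and 73.3 in TRaGS CD4 and 20.2, 127, 109 and 93.9 in TRaWT CD4. The low Nr4a3 values were those of TRaGS animal 2 and TRaWT animal 1. The log2 fold change of Nr4a3 was −0.65 ± 0.74 (adjusted p = 0.947). From the spread of each gene's own CD4 values the SE would be 1.41 for Egr2, 1.23 for Nr4a2 and 1.18 for Nr4a3.

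Fos had 226, 9.90, 31.8 and 151 normalised counts in TRaGS CD4, against 61.4, 32.6, 54.4 and 216 in TRaWT CD4. The highest value was that of a TRaGS animal and the next that of a TRaWT animal, and the log2 fold change was −0.26 ± 0.71 (limma adjusted p = 0.984). Its sign was positive with quantile normalisation, edgeR and DESeq2. Fosb had 59.6, 2.12, 11.3 and 18.3 in TRaGS CD4 and 28.3, 52.6, 18.5 and 30.5 in TRaWT CD4, a log2 fold change of −1.11 ± 1.14 (adjusted p = 0.947). Animal 2 of the TRaGS group, lowest for both Fos genes, held the highest Nr4a1 value: Nr4a1 had 48.9, 209, 54.3 and 27.5 in TRaGS CD4, against 76.7, 35.1, 33.8 and 86.6 in TRaWT CD4 (log2 fold change 0.24 ± 0.74, adjusted p = 0.987).

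The Jun genes and Egr1 varied less in CD4. Jun had 227, 186, 643 and 339 normalised counts in TRaGS CD4, against 357, 221, 487 and 640 in TRaWT CD4, a 3.46-fold range. Its log2 fold change was −0.35 ± 0.34 (adjusted p = 0.947), and as in Treg the highest TRaGS value was that of animal 3. Junb averaged 681 ± 253 in TRaGS CD4 and 762 ± 435 in TRaWT CD4 (SD, n = 4 each), and Jund averaged 976 ± 200 in TRaGS CD4 and 883 ± 347 in TRaWT CD4. Egr1 averaged 336 ± 57.1 in TRaGS CD4 and 293 ± 122 in TRaWT CD4, and none of these 3 was called (log2 fold changes −0.05 ± 0.27, 0.19 ± 0.25 and 0.28 ± 0.36).

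**Figure D3:**
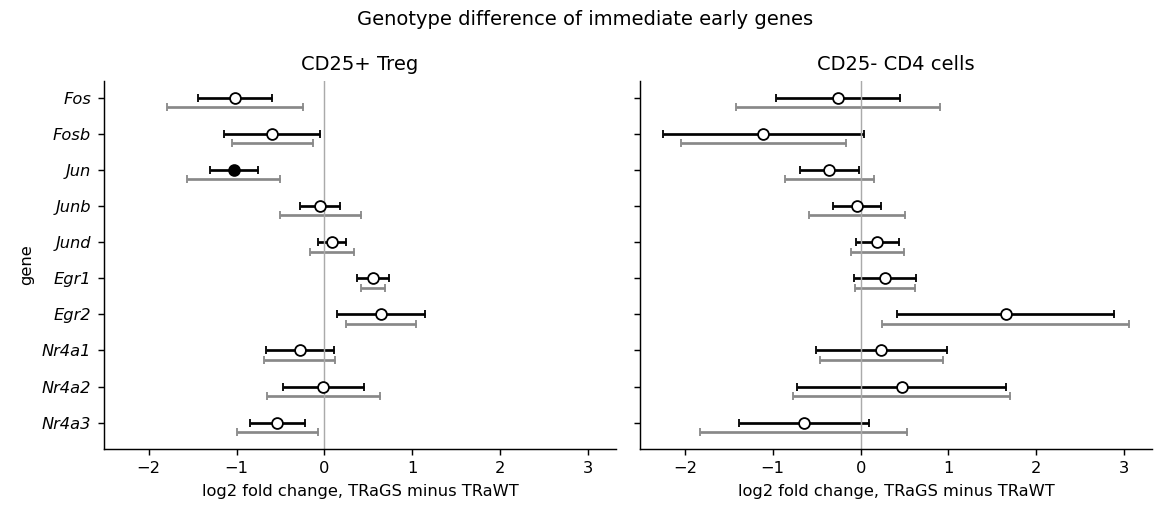
log2 fold change (TRaGS minus TRaWT) of each member in Treg and CD4, with bars of ± 1 SE. Black bars are limma's SE and grey bars the SE from the gene's own spread, and the filled point marks the call. Jun in Treg is the only filled point, with a limma SE of 0.27 and an SE from its own spread of 0.53.

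Whether the genotype effect differed between Treg and CD4 was asked of the within-animal differences, Treg minus CD4, of 8 animals. None of the 10 members passed the limma test (unadjusted p under 0.05 for 0 members and 5.96% of 9914 genes), and the test called 0 of all genes. For Jun the effect in Treg minus that in CD4 was −0.68 ± 0.32 (unadjusted p = 0.0623, adjusted p = 0.840), and for Egr1 it was 0.28 ± 0.49 (adjusted p = 0.953).

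Several members (Fos, Jun, Junb, Jund and Nr4a3 in both subsets, Nr4a2 in Treg) differed between animals of 1 genotype more than most genes of like level. For Junb in Treg the within-genotype SD on the log2 scale was 0.65, against 0.23 from limma's trend for its level, a ratio of 2.77, and 0.0633% of the genes tested had a larger ratio. The ratio was 2.60 for Jun, 2.34 for Fos and 1.78 for Jund in Treg, exceeded by 0.0905%, 0.163% and 1.56% of genes. For Nr4a3 and Nr4a2 in Treg it was 1.63 and 1.51, exceeded by 3.26% and 5.64% of genes. Egr1 was on the other side, with a ratio of 0.75 in Treg that 76.6% of genes exceeded, and so was Fosb, with a ratio of 0.82 in both subsets that 67.9% of genes exceeded in Treg and 68.1% in CD4. In CD4 the ratio was 2.00 for Junb, 1.65 for Fos, 1.58 for Nr4a3, 1.52 for Jun and 1.20 for Jund. For Egr2 and Nr4a2 in CD4 it was 1.14 and 1.04, exceeded by 22.7% and 35.6% of genes. In Treg the ratio of Egr2 was 0.77, exceeded by 73.6% of genes. Nr4a1 was at 1.05 in Treg and 0.95 in CD4, and Egr1 at 0.95 in CD4.

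These differences between animals were shared by both subsets for the Jun genes. Over the 8 animals, the log2 values in Treg and CD4 correlated with a Pearson r of 0.92 for Jund (Spearman rho 0.81), 0.88 for Jun (rho 0.90) and 0.81 for Junb (rho 0.69), given as a description. Among 9914 genes the median r was 0.06, with quartiles of −0.24 and 0.35, and 99.9%, 99.6% and 98.7% of genes had a lower r than Jund, Jun and Junb. Without the 2 animals farthest from the median in CD4, r was 0.92, 0.86 and 0.94 for these genes, and with values centred on each genotype's mean it was 0.93, 0.95 and 0.81. For Fos r was 0.55, for Nr4a3 0.54, for Nr4a2 0.36, for Fosb 0.26, for Egr1 0.18 and for Egr2 0.13, and for Nr4a1 it was −0.29. The rho of Fos was 0.29 and that of Nr4a3 0.24, and r of Nr4a3 was −0.39 without the 2 farthest animals. The 2 libraries of an animal share its spleen, and their library numbers in the labels lie close together.

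**Figure D4:**
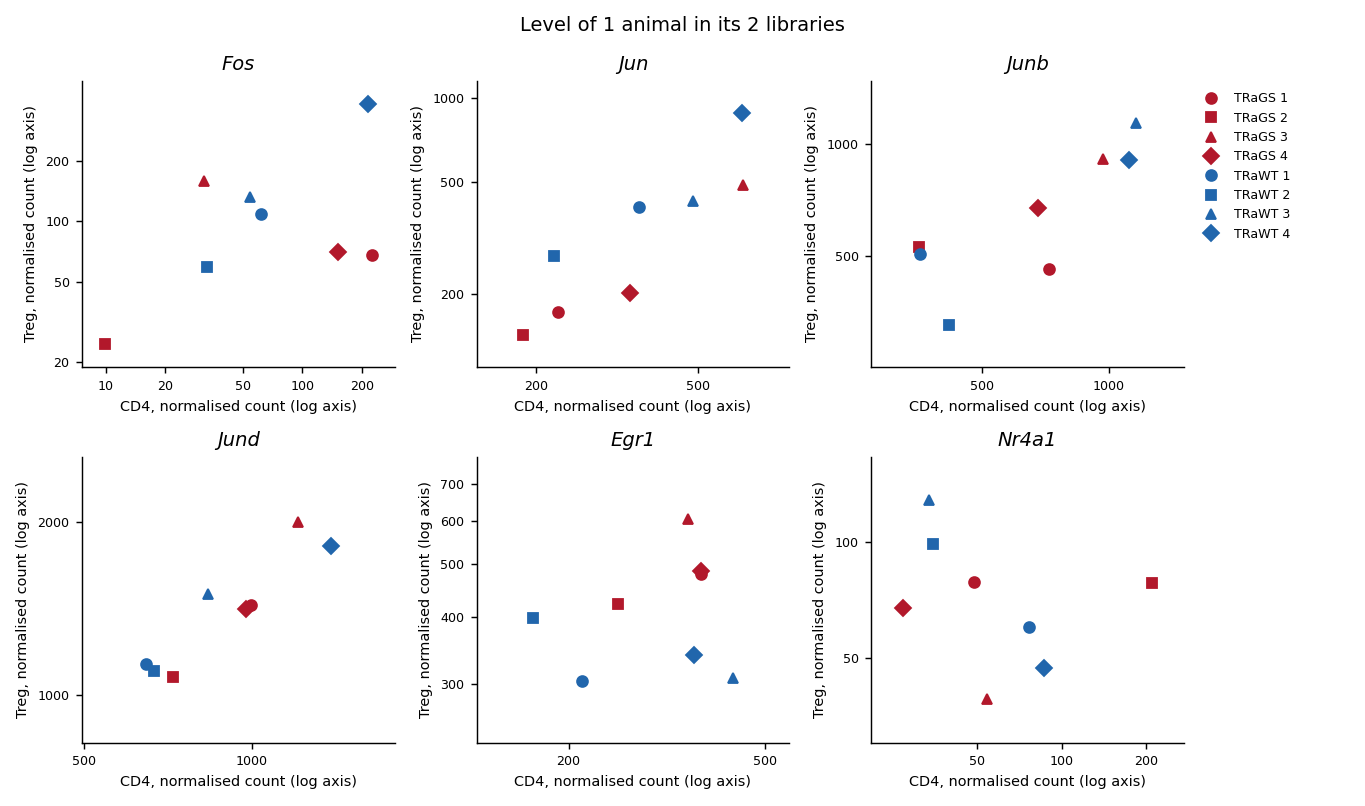
Normalised counts of 6 members in Treg (vertical) against CD4 (horizontal) of the same animal, on log axes, with 1 point per animal, 4 TRaGS and 4 TRaWT animals. Jund, Jun and Junb lie along a rising line (r = 0.92, 0.88 and 0.81), and Nr4a1 does not (r = −0.29).

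TRaGS animal 2 had the lowest value of 8 for Fos, Fosb, Jun and Nr4a3 in both subsets, for Junb in CD4 and for Jund in Treg. The same animal had the highest Egr2 in both subsets. TRaWT animal 4 was among the top 2 for 6 members in each subset. TRaGS animal 1 was among the top 2 for 6 members in CD4 and for 0 in Treg, and TRaGS animal 3 was among the top 2 for 6 members in Treg. Some library measures are given beside these ranks. Gm42418, a gene known to overlap ribosomal RNA, took 25.8%, 20.8%, 31.6% and 27.4% of the reads in TRaGS Treg, against 24.2%, 25.2%, 30.4% and 33.0% in TRaWT Treg. In CD4 it took 31.4%, 21.1%, 35.5% and 33.0% in TRaGS, against 27.1%, 29.6%, 35.1% and 41.1% in TRaWT. The 3 animals with the highest share, TRaWT animals 3 and 4 and TRaGS animal 3, were the 3 highest in Jun in both subsets. Over all members the subsets differed. In Treg the same 3 animals ranked highest, with a median rank of 2 for TRaGS animal 3 and TRaWT animal 4. It was 3 for TRaWT animal 3, which was also among the lowest 2 for 3 members. In CD4, TRaGS animal 1, among the top 2 for 6 members, had the fourth lowest share, and TRaGS animal 3 and TRaWT animal 3 were among the top 2 for 2 members each. TRaGS animal 2 had the lowest share and the deepest library in both subsets, and its CD4 library had 3.71% mitochondrial mRNA, against 1.26% to 2.42% in the others. Summed markers of other cell types made up 0.0584% of the reads in that CD4 library, against 0.0286% to 0.0380% in the other CD4 libraries. Its erythroid list summed to 404 normalised counts, against 1.67 to 30.5 in the other CD4 libraries. The part of these measures in the members' values was not tested. TRaGS animals 3 and 4 carry library numbers above those of all TRaWT animals, so library order and genotype cannot be told apart for them. With TRaGS animals 1 and 2 alone against the 4 TRaWT animals, the log2 fold change of Jun in Treg was −1.53 (limma adjusted p = 0.000426) and that of Egr1 0.42 (adjusted p = 0.725). That leaves out TRaGS animal 3, the only TRaGS animal whose Jun value in Treg overlapped those of TRaWT. Without animal 3 alone, Jun was at −1.41 (limma adjusted p = 0.00174). The part of library order therefore cannot be read from the value with animals 1 and 2.

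Within Treg, the AP-1 members, Nr4a2 and Nr4a3 all had a positive r with each other, the lowest 0.24 for Fosb with Nr4a3. In CD4 the same members did too, but for Fosb with Jun (−0.06). With log2 values centred on genotype means over 8 libraries, r was 0.95 between Fos and Jund, 0.94 between Fos and Jun, 0.92 between Jun and Jund, 0.91 between Jund and Nr4a3 and 0.90 between Junb and Nr4a3. In CD4 the same pairs gave 0.59, 0.30, 0.80, 0.53 and 0.66, and the highest pair there was Junb with Egr1 at 0.91, which gave −0.07 in Treg. The r of Nr4a1 was negative with every gene of these pairs, to unequal degrees: in Treg it was −0.80 with Jun, −0.70 with Fos, −0.54 with Jund, −0.28 with Nr4a3 and −0.24 with Junb. In CD4 it was −0.18 with Jun, −0.45 with Fos, −0.13 with Jund, −0.81 with Nr4a3 and −0.39 with Junb. These are descriptions over 8 libraries that share depth and scaling within each table.

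**Figure D5:**
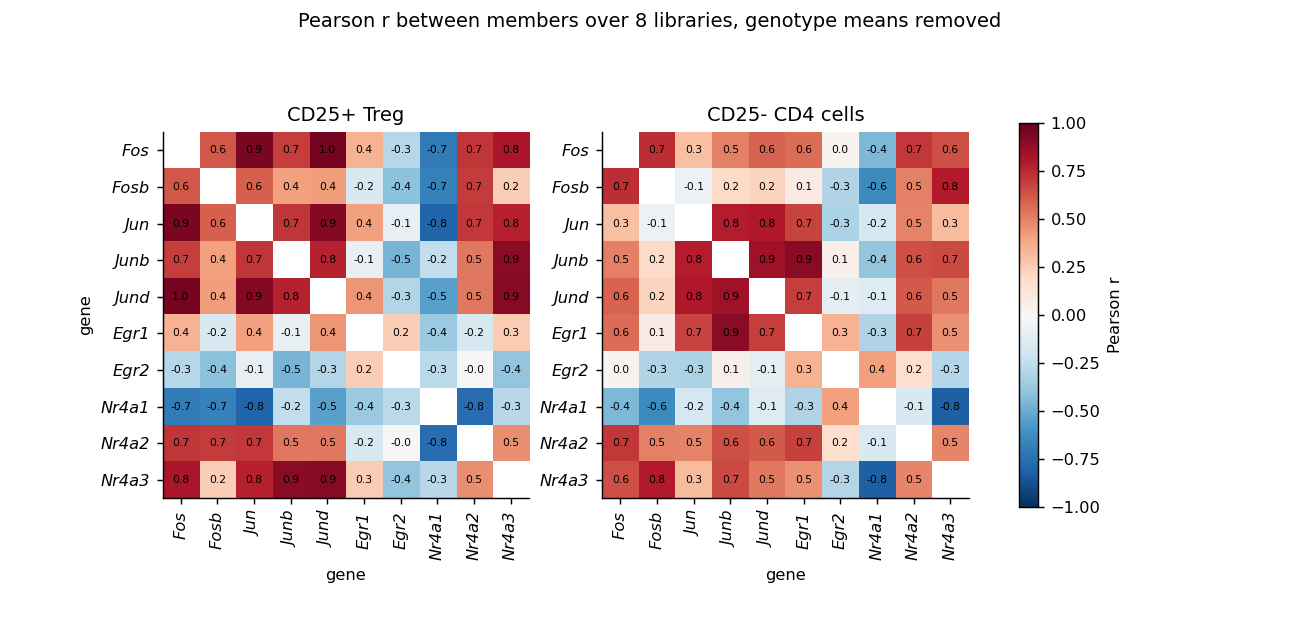
Pearson r between members over the 8 libraries of each subset, with log2 values centred on genotype means (colour scale from −1 to 1). The AP-1 members, Nr4a2 and Nr4a3 form a block of positive r in Treg, and in CD4 but for Fosb with Jun. The row of Nr4a1 is mostly negative in both subsets.

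The genes most like Fos in both subsets, by the smaller of the r in Treg and in CD4 over 8 libraries each, were Smarcc2 (0.88 in Treg, 0.88 in CD4), a chromatin remodelling subunit, Gadd45b (0.94 and 0.87), a stress-inducible gene, Lyrm4 (0.86 and 0.86), Plcl2 (0.86 and 0.85) and Ftsj3 (0.90 and 0.83). Those most like Nr4a1 were C1qbp (0.97 in Treg, 0.96 in CD4), Tmed7 (0.88 and 0.89), Tmx1 (0.87 and 0.85), Sem1 (0.96 and 0.81) and Ythdf2 (0.87 and 0.79). Only Gadd45b belongs to the list of other immediate early genes. These genes were the highest picked from 9914 genes over 8 libraries, so a high r follows from the selection itself and was not tested.

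On the scale of recovered reads scaled to 1000000 per library, which sets both tables beside each other without a test, 8 of the 10 members had a positive mean log2 difference, Treg minus CD4. The share of all genes with a positive difference was not counted, so this is not a trait of the members. With Gm42418, the most abundant gene, taken out, the difference was 0.55 for Jund, 0.34 for Egr1 and −0.13 for Junb. With it, these were 0.65, 0.44 and −0.03. That of Egr2 stayed at 1.08, and no mean changed sign. Jund reached 442 ± 87.3 such reads in Treg and 285 ± 73.7 in CD4 (SD, n = 8 animals), a log2 difference of 0.65 ± 0.16 (SD) with Treg higher in 8 of 8 animals. Nr4a2 reached 20.2 ± 12.3 in Treg and 9.32 ± 11.3 in CD4, higher in Treg in 7 of 8 animals, and Nr4a3 44.9 ± 19.4 in Treg and 25.0 ± 15.0 in CD4, higher in 6. Egr1 reached 130 ± 33.3 in Treg and 96.9 ± 28.1 in CD4, higher in Treg in 4 of 4 TRaGS and 2 of 4 TRaWT animals. Fos reached 37.6 ± 31.2 in Treg and 30.0 ± 25.7 in CD4, higher in Treg in 2 of 4 TRaGS and 4 of 4 TRaWT animals. The log2 differences of Fosb, Egr2 and Nr4a1 were 0.55 ± 1.18, 1.08 ± 1.71 and 0.27 ± 1.11, with SDs larger than the means. The SD was also larger for Fos (0.52 ± 1.27), Egr1 (0.44 ± 0.59) and Nr4a3 (1.14 ± 1.25). It also exceeded the size of the mean for Jun (−0.14 ± 0.42) and Junb (−0.03 ± 0.45), and Nr4a2 was at 1.46 ± 1.39. Jun reached 113 ± 66.8 in Treg and 119 ± 54.3 in CD4, and was lower in Treg in all 4 TRaGS animals (log2 difference −0.42 ± 0.31) and in 1 of 4 TRaWT animals (0.14 ± 0.31). Junb reached 208 ± 75.6 in Treg and 222 ± 99.1 in CD4 and was higher in Treg in 2 of 8 animals.

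Genes upstream of and beside the members were read from 8 lists of 121 entries. Of these, 109 passed the filter in Treg and 106 in CD4, and limma called 0 in either subset (17 and 9 had an unadjusted p under 0.05, against 9.12% and 5.17% of all genes). edgeR called 0 in both, and DESeq2 called 1 in Treg (Tnfrsf18) and 0 in CD4. The kinases of the ERK, JNK and p38 pathways had a median log2 fold change of −0.13 in Treg (8 positive, 10 negative) and −0.27 in CD4 (5 positive, 13 negative). Map2k3, a kinase upstream of p38, averaged 85.5 ± 20.7 normalised counts in TRaGS Treg and 41.8 ± 19.5 in TRaWT Treg (adjusted p = 0.346). Rasgrp1, which couples the antigen receptor to Ras, averaged 1106 ± 580 in TRaGS CD4 and 699 ± 98.8 in TRaWT CD4 (adjusted p = 0.947). Map2k2, a kinase of the ERK pathway, had a log2 fold change of −1.01 ± 0.50 in CD4 and was not called.

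The phosphatases and feedback inhibitors that end MAP kinase signals had a median of −0.21 in Treg (5 positive, 6 negative) and −0.67 in CD4 (3 positive, 5 negative). Dusp2, a nuclear MAP kinase phosphatase, averaged 240.5 ± 11.4 in TRaGS Treg and 349 ± 77.3 in TRaWT Treg (adjusted p = 0.394). The log2 fold changes of Dusp5 in Treg (−0.35 ± 0.24) and of Dusp7 and Dusp6 in CD4 (−0.98 ± 0.48 and −0.82 ± 0.64) were also uncalled. Serum response factor, its partners and the CREB group, which act on such promoters, had medians of −0.03 in Treg and −0.11 in CD4. Srf averaged 145 ± 113 in TRaGS CD4 and 194 ± 82.7 in TRaWT CD4 (adjusted p = 0.947). Elk1, a partner of Srf, had a log2 fold change of 2.30 ± 1.36 in CD4, where it averaged 28.1 ± 29.7 in TRaGS and 2.97 ± 0.92 in TRaWT. In Treg, Mef2c and Elk3 had log2 fold changes of 1.25 ± 0.69 and 0.52 ± 0.30, both uncalled. Among the AP-1 partners and relatives the median was 0.02 in Treg (5 positive, 4 negative) and −0.14 in CD4 (3 positive, 6 negative). Bach2, a repressor that competes for AP-1 sites, averaged 293 ± 60.4 in TRaGS Treg and 389 ± 23.2 in TRaWT Treg, with TRaGS values of 234 to 354 below the TRaWT values of 363 to 417 (adjusted p = 0.480). Jdp2, another AP-1 repressor, had log2 fold changes of 1.96 ± 0.93 in Treg and 1.88 ± 1.40 in CD4, and Atf7 one of −1.38 ± 0.76 in CD4, and none of these was called.

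The list of other immediate early genes had a median of −0.19 in Treg (8 positive, 13 negative) and 0.10 in CD4 (14 positive, 7 negative). Pim1, a signal-induced kinase, averaged 1099 ± 255 normalised counts in TRaGS CD4 and 547 ± 136 in TRaWT CD4, without overlap, a log2 fold change of 1.02 ± 0.26 (adjusted p = 0.109). Klf10 averaged 53.2 ± 15.7 in TRaGS Treg and 21.3 ± 8.14 in TRaWT Treg, without overlap (adjusted p = 0.410). Klf4 had a log2 fold change of −1.58 ± 0.67 in Treg and Klf2, a quiescence factor, one of 0.45 ± 0.21 in CD4, both uncalled. The antigen receptor response genes were 11 positive and 11 negative in Treg (median 0.01) and 12 positive and 9 negative in CD4 (median 0.08). Tnfrsf18, which encodes GITR and is also a Treg marker, averaged 765 ± 61.3 in TRaGS Treg and 518 ± 48.8 in TRaWT Treg, without overlap (log2 fold change 0.56 ± 0.16, limma adjusted p = 0.0774). It passed the threshold with upper-quartile scaling (adjusted p = 0.0424), quantile normalisation (0.0474) and DESeq2 (0.00805), and in none of the other 16 alternatives. Tnfrsf4, which encodes OX40, averaged 849 ± 173 in TRaGS Treg and 586 ± 65.3 in TRaWT Treg, also without overlap (adjusted p = 0.156). In CD4, Tagap had a log2 fold change of 1.13 ± 0.51 and Myc one of −1.27 ± 1.20, both uncalled.

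Heat shock genes, which report handling stress beside other states, had a median of −0.26 in Treg (2 positive, 11 negative) and −0.10 in CD4 (5 positive, 8 negative). Dnajb4 averaged 69.5 ± 8.68 in TRaGS Treg and 132 ± 46.6 in TRaWT Treg, without overlap (adjusted p = 0.331). The chaperonin gene Hspe1 had a log2 fold change of −0.66 ± 0.26 in Treg and its partner Hspd1 one of −0.93 ± 0.44 in CD4, where Hspa8 had 0.30 ± 0.25, and none was called. The summed level of the list ran between 13876 and 16990 normalised counts in TRaGS Treg and between 13941 and 20036 in TRaWT Treg, and TRaWT animal 4 had the highest sum in both subsets. That is the animal that was among the top 2 for 6 of the 10 members in each subset. The lowest sum was that of TRaGS animal 1 in Treg and TRaWT animal 2 in CD4. TRaGS animal 2, lowest for 5 members in each subset, had the lowest sum in neither. The part of handling in the members' values was not tested. Of the Egr relatives and co-repressors, 2 genes passed the filter in Treg and 3 in CD4. Nab1, a co-repressor of Egr factors, averaged 166 ± 16.8 in TRaGS Treg and 146 ± 56.7 in TRaWT Treg (adjusted p = 0.862), and 135 ± 99.2 in TRaGS CD4 and 237 ± 112 in TRaWT CD4 (adjusted p = 0.947). Nab2 in Treg (log2 fold change −0.10 ± 0.36) and Egr3 in CD4 (−0.59 ± 1.40) were uncalled too.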

How the data were processed

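The authors deposited 1 table of normalised counts (a signal per gene) for each T cell subset, aligned to GRCm38 per the submitters' processing notes. The aligner, the counter, the annotation and the use of strand are not named in the labels or file headers. Per the labels' protocols, RNA from sorted spleen cells went into 3' mRNA tag libraries, which give about 1 tag per transcript whatever its length. In all 16 libraries 100% of values were whole reads times 1 factor (tolerance 0.001), and the factors equal median-of-ratios size factors.

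Symbols were matched for 47224 of 47643 identifiers with GENCODE mouse 21. log2(value + 1) of genes with a mean of at least 5 was tested with limma 3.58.1 in R 4.3.3, with a variance trend, p-values adjusted over all genes of a table, and a threshold of 0.05. Tables were scaled separately, so each was fitted alone, and the subsets were compared through each animal's Treg minus CD4 difference, paired by the animal numbers in the titles. edgeR 4.0.16 on recovered reads called 90 genes in Treg and 3 in CD4, and limma called 106 and 6. DESeq2 1.42.0, other scalings, filters, pseudocounts, a replicate block and leaving out animals were the alternatives. The scripts were tested on simulated data.

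No pair of replicates agreed within sampling noise. The CD4 pairs with TRaGS animal 2, the deepest library, lay farthest apart, at a chi-square per degree of freedom of 64.4 to 77.2. The other CD4 pairs within a genotype were at 12.6 to 34.0. The members, the 8 gene lists, the marker lists and the tests were chosen with earlier results of these data known. All members are named. From each list, up to 4 called genes per subset were to be named, or the 2 with the smallest p where none was called, and 1 gene that this rule picks is not reported here. For Fos and Nr4a1 the 5 genes most like each were named by the smaller r of the 2 tables, with log2 values centred on genotype means. Genes without a symbol, predicted genes, pseudogenes, and T cell receptor and immunoglobulin genes were left out of that choice. No sequencing batch is given beyond the library numbers in the titles.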

Additional observations from a re-analysis of the deposited data

Results flagged for a closer look

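3 values stood apart from the other 3 animals of their group, by a gap to the nearest animal above Dixon's 95% critical share of the group's range. In 40 such groups of 4 (10 members, 2 genotypes, 2 subsets), chance alone sets about 1 in 20 apart in this way. Jun was 489 normalised counts in Treg of TRaGS replicate 3, against 142 to 201 in the other TRaGS animals, and the gap was 0.830 of the range. Nr4a1 was 209 in CD4 of TRaGS replicate 2, with a gap of 0.852 of the range. Fos was 216 in CD4 of TRaWT replicate 4, with a gap of 0.843 of the range.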

How the results depend on the processing

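The number of genes called in CD4 was 6, and it was 1 with no filter, 2 with upper-quartile scaling, 0 with no variance trend, 3 with edgeR, 10 with DESeq2 and 1 to 7 when 1 animal was left out. In Treg it was 106, and it was 62 with no filter, 0 with no variance trend, 34 with TRaGS replicates 1 and 2 alone and 54 to 108 when 1 animal was left out. For the difference between subsets it was 0, and 0 to 1 when 1 animal was left out. The 1 member called in Treg, Jun, was 0 with a pseudocount of 0.5, no filter, a filter at a mean of 20, quantile normalisation, upper-quartile scaling, no variance trend, edgeR and DESeq2, and 0 to 1 when 1 animal was left out. Its adjusted p ran from 0.000426 to 0.661, and the cause was not tested. Samples with the same replicate number in both genotypes did not deviate together (r between −0.002 and 0.034), and with the replicate block 1 member and 112 genes were called in Treg, 0 members and 4 genes in CD4.

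Some log2 fold changes of uncalled genes turned sign. In CD4, Fos was 0.038 with quantile normalisation, 0.19 with edgeR and 0.20 with DESeq2, and Dusp7 was 0.16 with TRaGS replicates 1 and 2 alone. In Treg, Junb was 0.012 and Nr4a2 0.046 with upper-quartile scaling, Nr4a2 was 0.00045 with quantile normalisation, and with TRaGS replicates 1 and 2 alone Jund was −0.13, Nr4a1 0.021 and Nab2 0.32. For the difference between subsets, Nr4a3 was −0.0087 with a pseudocount of 5 and −0.29 with quantile normalisation, Junb was 0.17 with quantile normalisation and 0.0080 with TRaGS replicates 1 and 2 alone, and Jund was 0.043 with quantile normalisation. When 1 animal was left out, the range in CD4 was −0.90 to 0.56 for Fos, −0.34 to 0.24 for Junb, −0.34 to 0.62 for Nr4a1, −0.35 to 1.16 for Nr4a2, −1.24 to 0.34 for Nr4a3 and −1.68 to 0.29 for Egr3. In Treg it was −0.37 to 0.23 for Junb, −0.067 to 0.23 for Jund, −0.45 to 0.50 for Nr4a2 and −0.49 to 0.11 for Nab2. For the difference between subsets it was −0.21 to 0.20 for Junb, −1.12 to 0.49 for Nr4a2, −0.69 to 0.73 for Nr4a3 and −0.10 to 1.19 for Fosb. In CD4 the lowest library held 2 reads of Egr2, 3 of Nr4a2, 7 of Nr4a3 and 3 of Fosb, so those values rest on few reads, and none of these was in the shallowest library.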
